A study of Mus musculus with 3 samples.

Results

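The 9 genes described here encode the pentraxin Ptx3, the acute-phase proteins Lcn2, Saa3, Orm1 and Lbp, and the complement proteins C1r, C1s, C3 and Cfb. They were measured in EpH4-PR cells, a line of mouse mammary epithelial cells carrying a stable transfection of the A isoform of the progesterone receptor (PR). All probes that bear one of these names were taken, with older names resolved through RefSeq accessions (H2-Bf for Cfb, C1ra for C1r and C1s1 for C1s), which gave 12 of the 41174 probes and 9 of the 28655 gene names on the array. The genes were brought together by function with results of these data known, and Ptx3 was chosen by its measured values, which had placed it among the most extreme probes, so the values of the 9 genes are a description without a test. The 3 EpH4-PR samples, numbered 1, 2 and 3 in their labels, were kept in DMEM with 10% FBS until about 75% confluent. The selection drug G418 was in the medium of the line, and no hormone is named in the labels. Cy5 carried EpH4-PR RNA on each of the 3 arrays, and Cy3 carried RNA of a commercial mouse standard whose composition the labels do not give. No array had the dyes exchanged. EpH4-EV cells, which carry the empty vector, were not analysed here, so a ratio below gives the level in EpH4-PR cells against the standard RNA and is no effect of PR. Clones were selected after transfection; whether the line is 1 of them, and whether the samples are separate cultures, is not stated, so p-values measure only the spread between arrays, which may be technical.

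Acute-phase proteins are secreted in inflammation, mostly by the liver but also by epithelia, and their genes are induced by Il1, Il6 and Tnf through the transcription factors NF-kappaB, Stat3 and the C/EBP family. Complement is a cascade of plasma proteases: the classical pathway starts with C1q and its proteases C1r and C1s, the alternative pathway with factor B (Cfb), and both cleave C3. Ptx3 is a long pentraxin made at the site of inflammation that recognises microbes and binds C1q. In the mammary gland, several of these genes are known for their rise at weaning, when the gland involutes.

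Promoter windows from RefSeq (GRCm38.p6), which run from 250 bases before to 50 bases after a gene's start, were held for 6 of the 9 genes and not for Cfb, Orm1 and Lbp. Both strands were searched for the NF-kappaB consensus, for TTNNGNAA (the core of a C/EBP site) and for TTCNNNGAA (the core of a Stat site). Of 32851 windows of the same length in the table, 8.46% held the NF-kappaB consensus, 40.7% held TTNNGNAA and 8.3% held TTCNNNGAA. Among the 6 genes only the window of Ptx3 held the NF-kappaB consensus, as a pair of overlapping matches at its start, and only that of C1r held TTCNNNGAA, at bases 33 to 41 after the start. TTNNGNAA was found in the windows of all 6 genes. A match is a run of letters and not a bound site. The bases upstream of Ptx3, Saa3 and C3 are shown, 5′ to 3′, because Ptx3 and Saa3 had low ratios on the arrays and the C3 signal lay far above the negative controls; capitals mark a match. The first 30 bases of the Ptx3 transcript follow its upstream stretch because they hold the NF-kappaB match, whose first letter is the last upstream base.
Ptx3 upstream, chr3:66219637-66219886, plus strand: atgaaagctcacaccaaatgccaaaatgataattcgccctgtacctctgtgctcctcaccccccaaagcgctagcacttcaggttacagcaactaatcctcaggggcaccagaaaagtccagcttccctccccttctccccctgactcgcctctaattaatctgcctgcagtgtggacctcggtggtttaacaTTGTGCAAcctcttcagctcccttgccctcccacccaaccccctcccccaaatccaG
Ptx3 first bases, chr3:66219887-66219916, plus strand: GGGAACTCCCtcgcgctgtgccaccgacat
Saa3 upstream, chr7:46715677-46715926, minus strand: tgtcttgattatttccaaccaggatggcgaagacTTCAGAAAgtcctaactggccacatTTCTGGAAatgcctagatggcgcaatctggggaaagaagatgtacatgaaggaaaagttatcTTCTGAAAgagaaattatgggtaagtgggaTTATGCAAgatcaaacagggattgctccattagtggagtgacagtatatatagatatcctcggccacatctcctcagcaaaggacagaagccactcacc
C3 upstream, chr17:57228137-57228386, minus strand: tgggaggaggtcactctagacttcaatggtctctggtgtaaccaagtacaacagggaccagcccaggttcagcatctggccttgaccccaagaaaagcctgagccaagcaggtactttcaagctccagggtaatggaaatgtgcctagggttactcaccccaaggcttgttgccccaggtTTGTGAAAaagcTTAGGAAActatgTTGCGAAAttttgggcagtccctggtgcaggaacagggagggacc

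A ratio is the log2 of the EpH4-PR signal over that of the standard RNA, after correction for local background and loess normalization within each array. A probe was called when limma with Benjamini-Hochberg adjustment over all probes gave an adjusted p under 0.05 and the ratio was at least 1 either way, which held for 928 probes as higher and 1584 as lower in EpH4-PR RNA. Median centring in place of loess called 7029 probes higher and 709 lower and moved the share of higher calls from 36.9% to 90.8%, so signs of small ratios rest on this choice. The 314 negative control spots gave a scale for dim signals, with a median Cy5 intensity of 72.6, 74.1 and 57.3 and a 95th percentile of 85.9, 87.4 and 62.9 on replicates 1, 2 and 3. In Cy3 their 95th percentile was 162, 168 and 107. For Pgr, the transfected gene, both probes exceeded background in Cy5 on 1 array each; whether they lie within the transfected sequence was not tested.

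Of the 12 probes, 6 met the criteria as lower in EpH4-PR RNA and 0 as higher, against 3.85% and 2.25% of all probes (6.1% either way). These 6 belong to Ptx3, Saa3, C1r and C1s. The probes of Lcn2, Lbp, C3 and Cfb had ratios between -0.75 and 0.38, and Orm1 gave no usable ratio. The median ratio was -1.03 over the 12 probes and -1.31 without Orm1, and that over all probes was -0.01. In bulk RNA, fewer cells that express a gene and less RNA per cell cannot be told apart. No spot of the 12 probes was saturated or marked as an outlier, and the scanner software placed 11 of the 12 well above background in each channel of every array.

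**Figure D1:**
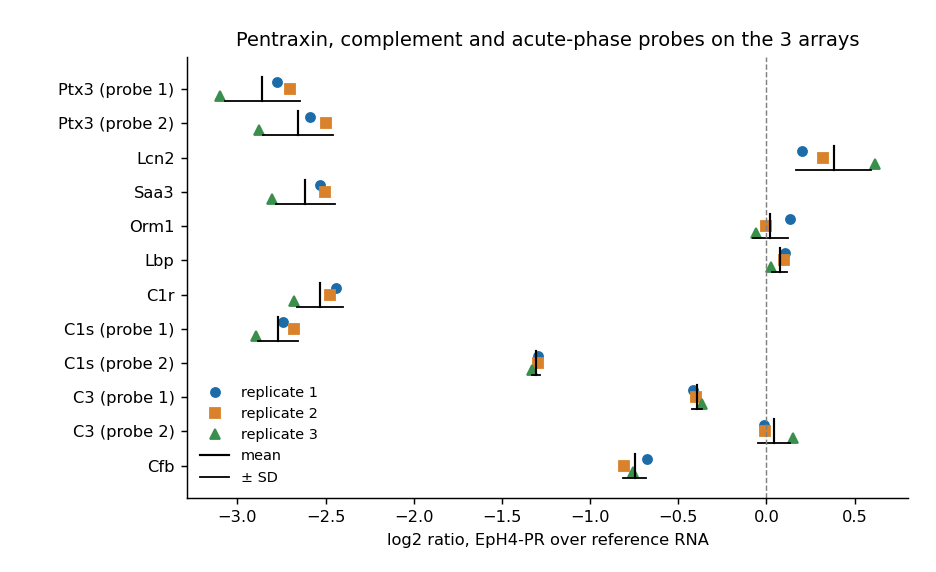
EpH4-PR signal over that of reference RNA as a log2 ratio (horizontal axis) for the 12 probes of the 9 genes, 1 point per array, with the mean as a vertical line and the SD as a horizontal bar below the points (n = 3). The probes of Ptx3, Saa3 and C1r and the first C1s probe lie between -3.10 and -2.44 on every array, and the other probes lie at -1.33 or above.

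Ptx3 was low on both of its probes. Its first probe (A_51_P374726) gave -2.78, -2.70 and -3.10 on replicates 1, 2 and 3, with a mean of -2.86 ± 0.21 (SD, n = 3), or a 7.25-fold lower signal than in the standard RNA. Its second probe (A_52_P26161) gave -2.59, -2.50 and -2.88, a mean of -2.66 ± 0.20 (SD, n = 3), which is 6.30-fold lower. Both probes were lowest on replicate 3, and their ranges over the arrays overlapped. Among all 41174 probes, 131 lay below the first Ptx3 probe and 176 below the second.

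The EpH4-PR signal of Ptx3 was close to that of the negative control spots. The first probe read 86.9, 87.1 and 72.6 in Cy5 on replicates 1, 2 and 3, which is 1.01, 0.997 and 1.15 times the 95th percentile of the negative controls, while the same spots read 380, 356 and 369 in Cy3. The second probe read 112, 111 and 87.2 in Cy5, or 1.31, 1.27 and 1.39 times that percentile, and 400, 370 and 368 in Cy3. In Cy3 both probes lay above the negative controls' 95th percentile on every array, and in Cy5 the first did so on 2 of the 3. The scanner software's own log10 ratio of the first probe was -1.42, -1.41 and -1.56, with an error score of 0.208, 0.200 and 0.148, which is -4.86 as a mean on the log2 scale. The size of the Ptx3 ratio thus moved with the background correction, and its sign did not.

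Outside the 9 genes, the 3 named probes with the most similar ratios to the first Ptx3 probe over the 3 arrays were those of Fyb, Ogn and Tmem37, at root mean square differences of 0.05, 0.06 and 0.06 among 21548 candidates above background everywhere. Their mean ratios were -2.89, -2.84 and -2.82. The likeness covers only 3 arrays of 1 line.

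Saa3, a serum amyloid A protein made outside the liver, had ratios of -2.53, -2.51 and -2.81 on replicates 1, 2 and 3 and a mean of -2.61 ± 0.17 (SD, n = 3), or 6.12-fold lower than the standard RNA. Its Cy5 signal of 102, 101 and 85.9 was 1.19, 1.16 and 1.36 times the 95th percentile of the negative controls, and its Cy3 signal of 365, 350 and 349 lay above that percentile on every array. The probe's target accessions in the file include Saa1 as well as Saa3, so the value may hold signal of both genes.

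The paralog Saa1, a serum amyloid A made mainly by the liver, had a probe that was also low, with ratios of -2.06, -1.88 and -2.09 (mean -2.01, adjusted p = 2.75e-05 from limma). Its other probe was not well above background in EpH4-PR RNA on any array. Saa2 had a mean ratio of -0.02, with a value on either side of 0 between arrays.

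Lcn2, a lipocalin that binds bacterial iron carriers, had the highest ratios of the 9 genes, at 0.20, 0.32 and 0.62 on replicates 1, 2 and 3 (mean 0.38 ± 0.21, SD, n = 3). The ratio was above 0 on all 3 arrays, with a wide spread beside its size. Its Cy5 signal of 240, 202 and 225 was 2.80, 2.32 and 3.57 times the 95th percentile of the negative controls. In Cy3 the spot read 171, 151 and 115, between 0.895 and 1.08 times that percentile, so the dim side of this ratio was the standard RNA. The ratio stayed above 0 under every alternative that was run, from 0.26 without replicate 3 to 0.97 with the log ratio of the scanner software.

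Lbp, which binds lipopolysaccharide and hands it to Cd14, gave 0.10, 0.10 and 0.02, a mean of 0.07 ± 0.04 (SD, n = 3). Its EpH4-PR signal of 124, 124 and 123 lay above the negative controls on every array, at 1.44, 1.42 and 1.96 times their 95th percentile, whereas its Cy3 signal exceeded that percentile on 1 array. Orm1, an acid glycoprotein of plasma, was not well above background in EpH4-PR RNA on any array and was so in the standard RNA on 1 of them. Its intensities lay below the 95th percentile of the negative controls in both channels on all 3 arrays, so no ratio is read from it. The paralog Orm2 was likewise not well above background in EpH4-PR RNA on any array.

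**Figure D2:**
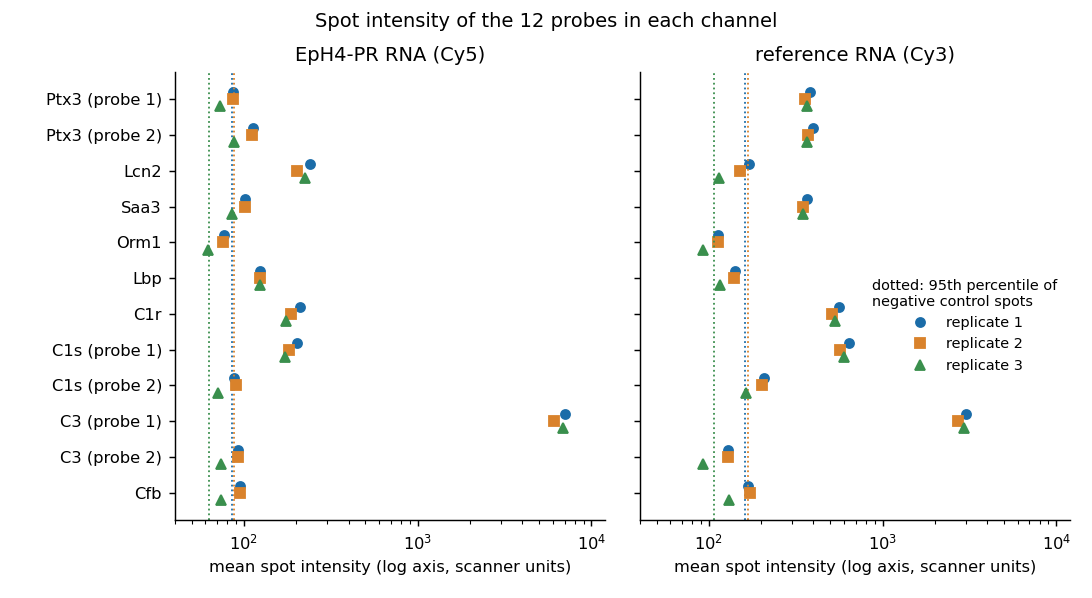
Mean spot intensity (horizontal log axis, scanner units before normalization) of the 12 probes in EpH4-PR RNA (Cy5, left) and in reference RNA (Cy3, right), 1 point per array, with the 95th percentile of the negative control spots of each array as a dotted line. The first C3 probe stands apart at 6052 to 7023 in Cy5, the first Ptx3 probe lies on the dotted lines in Cy5 at 72.6 to 87.1, and Orm1 lies below them in both channels.

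C1r and C1s, the paired proteases of the first complement component, are neighbours in the RefSeq gene order, and both were low. C1r had ratios of -2.44, -2.48 and -2.68 on replicates 1, 2 and 3 (mean -2.53 ± 0.13, SD, n = 3), a 5.79-fold lower signal than in the standard RNA. The first C1s probe (A_51_P208793) had ratios of -2.74, -2.68 and -2.89 (mean -2.77 ± 0.11, SD, n = 3), or 6.82-fold lower. Unlike Ptx3, both were clear of the negative controls in EpH4-PR RNA. C1r read 212, 186 and 174 in Cy5, or 2.46, 2.13 and 2.77 times their 95th percentile, against 559, 514 and 530 in Cy3. The first C1s probe read 203, 182 and 173 in Cy5 and 640, 566 and 597 in Cy3.

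The second C1s probe (A_52_P634218) was lower by less, at -1.29, -1.29 and -1.33 (mean -1.31 ± 0.02, SD, n = 3). The gap of 1.46 between the C1s probes is wide: of 3836 genes with 2 probes above background everywhere, 3.00% had a wider one, and the median gap was 0.31. The second probe had a Cy5 signal of 88.3, 89.6 and 70.6, only 1.02 to 1.12 times the negative controls' 95th percentile, and a Cy3 signal of 206, 203 and 165. By the log ratio of the scanner software the probes came closer, at -3.41 and -2.98. The paralog C1s2 had a mean ratio of -0.43 (adjusted p = 0.00551 from limma), short of the limit of 1.

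C3, the protein on which the complement pathways converge, was bright in EpH4-PR cells. Its first probe (A_51_P110301) read 7023, 6052 and 6881 in Cy5 and 3029, 2713 and 2942 in Cy3, or 69.3 to 109 times the 95th percentile of the negative controls in Cy5. After loess the ratios were -0.41, -0.40 and -0.36, a mean of -0.39 ± 0.03 (SD, n = 3), close together on the 3 arrays. The sign of this mean was not settled, since median centring gave 1.07, which called the probe higher, while the log ratio of the scanner software gave -0.35. Both channels were bright, and which was the brighter depended on the normalization.

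The second C3 probe (A_52_P133594) read 92.1, 92.8 and 74.2 in Cy5 and did not exceed the 95th percentile of the negative controls in Cy3 on any array. Its mean ratio was 0.04 ± 0.09 (SD, n = 3). The scanner software nevertheless placed it well above background in both channels. The gap between the C3 probes was 0.44, and 37.1% of the genes with 2 probes had a wider one.

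Cfb, the protease of the alternative pathway that forms the C3 convertase, had ratios of -0.68, -0.81 and -0.76 (mean -0.75 ± 0.06, SD, n = 3). Both of its signals were near the limit, with 1.09 to 1.18 times the negative controls' 95th percentile in Cy5 and 1.02 to 1.23 times in Cy3. Its ratio ranged from -1.95 by the log ratio of the scanner software to -0.62 with the median spot intensity. By that log ratio and with normexp offset 0 (-1.56) the probe was called lower, as were 9.44% and 9.49% of all probes there. Its neighbour C2, the matching protease of the classical pathway, had probes at -0.24 and -0.02.

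Ordered by ratio, the lowest were the first Ptx3 probe, the first C1s probe, the second Ptx3 probe, Saa3 and C1r. Ranges of adjacent probes among them overlapped over the arrays, but those of the first Ptx3 probe and C1r did not. On every array the first Ptx3 probe was lowest, the first C1s probe next and C1r highest of these. Only the second Ptx3 probe and Saa3 changed places between arrays. Under median centring the first C1s probe (-1.82) lay above Saa3 (-2.03), so its place rests on the processing. The second C1s probe, Cfb and the first C3 probe each stood clear of both neighbours. The second C3 probe and Lbp overlapped, Lcn2 lay above both on all arrays, and Orm1 was left out of the order. All 6 called probes had their most extreme ratio on replicate 3. The same was true of 58% of the 2504 called probes that had a value on every array, against 23.2% for replicate 1 and 18.8% for replicate 2.

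**Figure D3:**
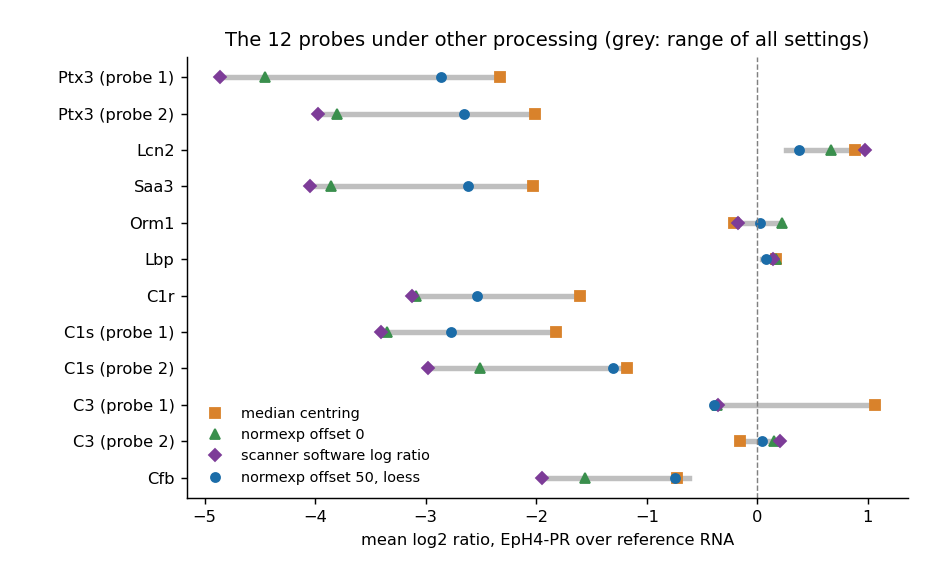
Mean log2 ratio (horizontal axis) of the 12 probes with normexp offset 50 and loess (circles) and under median centring, normexp offset 0 and the log ratio of the scanner software, with the range over all settings in grey. The probes of Ptx3, Saa3, C1r and C1s stay at -1.18 or below throughout, and the first C3 probe runs from -0.41 to 1.07.

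No setting brought a called probe to the other side of 0. The first Ptx3 probe ranged from -4.86 by the log ratio of the scanner software to -2.32 under median centring, Saa3 from -4.05 to -2.03, C1r from -3.12 to -1.61 and the first C1s probe from -3.41 to -1.82, each between the same 2 settings. With 1 array left out the first Ptx3 probe lay between -2.94 and -2.74.

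Other complement genes were taken from a list of 46, of which 45 had a probe and 28 were well above background in EpH4-PR RNA on all 3 arrays. By limma 2 were called lower (4.44%) and 0 higher, against 4.93% and 2.79% of all 28655 names counted the same way. At an unadjusted p under 0.05 from limma, 10 of the 45 genes had a probe above 0, against 32.7% of all names. A probe below 0 was found for 19 of the 45, against 34.7% of all names. The median ratio of the list's probes was -0.08. The called genes were Masp1 and Cfp. Masp1, a protease of the lectin pathway, was lower on 1 of its 3 probes, at -2.92, -2.92 and -3.12 on replicates 1, 2 and 3 (mean -2.98, adjusted p = 1.52e-05 from limma), and the other two lay at -0.14 and 0.16. Cfp, the stabiliser properdin, had a mean of -1.07 (adjusted p = 0.000133 from limma), which shrank to -0.28 under median centring.

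Of 38 further pentraxins and acute-phase genes, 36 had a probe, 4 were called lower (11.1%, against 4.93% of all names) and 1 higher (2.78%, against 2.79%), and the median ratio was -0.10. Hp, the haemoglobin scavenger haptoglobin, was higher than in the standard RNA, with ratios of 1.13, 0.96 and 1.24 (mean 1.11, adjusted p = 0.000163 from limma). Beside Saa1, the genes called lower were Mt2 and Mt1, which encode metal-binding metallothioneins, and Cd14, the co-receptor for lipopolysaccharide. Mt2 had a mean ratio of -2.08 (adjusted p = 1.91e-05), Mt1 had -1.63 on one probe and -0.14 on the other, and Cd14 had -1.72 (adjusted p = 2.39e-05, all from limma). None of these 4 reached the limit of 1 under median centring, where 0 genes of the list were called lower, and Saa1 came closest at -0.93. The other 6 pentraxins of the list, Crp and Apcs among them, had probes between -0.46 and 0.23.

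Of 55 genes of the Il1, Il6, Tnf and NF-kappaB signals that act on these genes, all had a probe, 5 were called lower (9.09%, against 4.93% of all names) and 1 higher (1.82%, against 2.79%), with a median ratio of -0.09. Cebpd, a C/EBP factor of the acute-phase response, was lowest at -3.70, -3.74 and -3.90 (mean -3.78, adjusted p = 1.13e-05 from limma), a 13.7-fold lower signal. Osmr, a receptor subunit for oncostatin M, followed at -2.63 on one probe and -0.45 on the other. Socs3, the feedback inhibitor of Stat3 signalling, had a mean of -1.88, and Ifngr1, a subunit of the interferon gamma receptor, one of -1.49. Under median centring these became -0.59 and -0.14. Il1r1, the receptor for Il1, was the fifth at -1.39 and was named after its values were seen. Median centring left 2 genes of the list called lower, Cebpd at -2.49 and Osmr at -1.57, so Il1r1 was not called there. The gene called higher was Nfkbie, an inhibitor of NF-kappaB, with ratios of 1.40, 1.39 and 1.37 (mean 1.39, adjusted p = 2.79e-05 from limma). Il6 itself, named after its values were seen, was not well above background in EpH4-PR RNA on any array. It was not called, since its mean ratio of -0.83 fell short of the limit of 1 (adjusted p = 0.000139 from limma). Its fitted signal there was 1.78-fold lower, which rests on a dim probe.

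**Figure D4:**
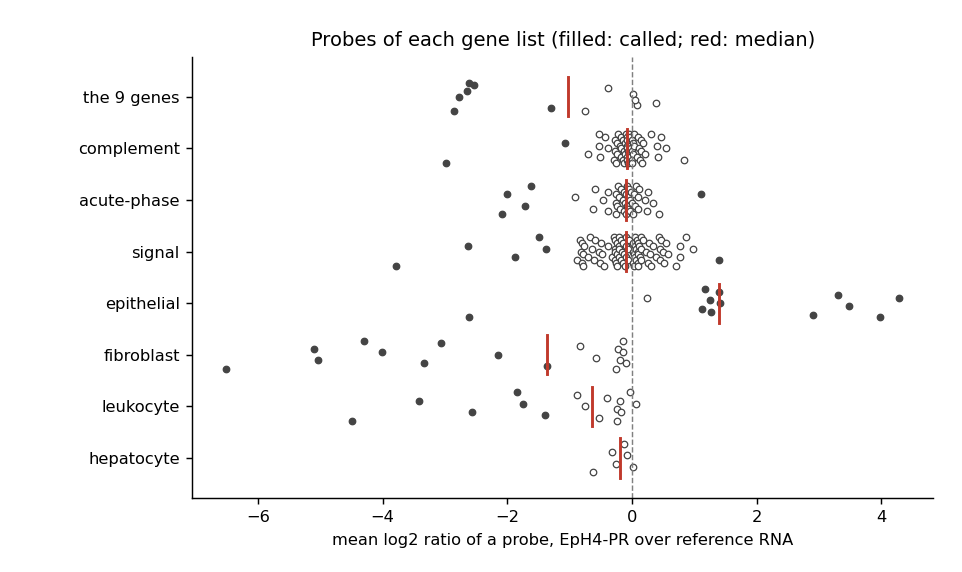
Mean log2 ratio, EpH4-PR signal over reference RNA (horizontal axis), for each probe of the 9 genes and of 7 gene lists, with called probes filled and the median in red. The medians of the complement, acute-phase and signal lists lie at -0.08, -0.10 and -0.09, that of the 9 genes at -1.03, and those of the epithelial and fibroblast lists at 1.40 and -1.37.

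The cell type was checked with marker lists, by ratios to the standard RNA alone. By these ratios epithelial markers were higher in EpH4-PR RNA and fibroblast and leukocyte markers lower. All 10 epithelial markers had a probe well above background in EpH4-PR RNA on all 3 arrays. So did all 9 fibroblast markers and 7 of 8 leukocyte markers, so detection did not separate the lists. Of the epithelial markers 9 were called higher (90%, against 2.79% of all names) and Krt19 lower. Cdh1 lay at 4.29 and Epcam at 1.25. Of 9 fibroblast markers 8 were called lower (88.9%, against 4.93% of all names), with probes between -6.51 and -0.09. Of 8 leukocyte markers 5 were called lower (62.5%). A Ptprc probe was not well above background in EpH4-PR RNA on any array, with a mean ratio of -4.50 (adjusted p = 1.10e-05 from limma). With the lowest signal well above background put in its place, it was 19.8-fold lower there, which is no strict bound. Another Ptprc probe was well above background there on all 3 arrays, at -1.40, and the remaining probe lay at -0.19 and was not called. Of 6 hepatocyte markers with a probe, 2 were well above background in EpH4-PR RNA on all 3 arrays and 0 were called by limma. At an unadjusted p under 0.05 from limma, 0 had a probe above 0 and 3 below, against 32.7% and 34.7% of all names. Alb lay at -0.62. The low ratios of Ptx3, Saa3, C1r and C1s thus stand beside low ratios of fibroblast and leukocyte markers, and their part in them was not tested.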

How the data were processed

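Per the labels, RNA of EpH4-PR cells (Cy5) and of a mouse standard (Cy3) was hybridised to 3 Agilent whole mouse genome arrays, 1 per slide. The authors deposited the output of Agilent Feature Extraction 8.1.1.1: per spot an intensity and a local background intensity in each channel, flags, and a log10 ratio with an error, used here as a score. They also deposited a table of their own comparison between sides that its header does not name (log ratios, fold changes, p-values and intensities), which was not used here. The genome build of the files is not given in the sources used here.

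Mean spot intensities were corrected with normexp (offset 50) and normalized by loess with control spots at weight 0, outlier spots were dropped (150, 18 and 3 on replicates 1, 2 and 3), and spots of a probe were averaged (R 4.3.3, limma 3.58.1, Python 3.11.15). A test of each ratio against 0 used lmFit and eBayes over 41174 probes. On simulated log ratios with each probe's moderated spread, 100% of 200 probes changed by 1.5 log2 units among 41174 were recovered with 0 false calls. This checks the calling step alone, since background correction, normalization and dim signals were not simulated. A list gene counted as called when any probe was called and none the other way. The 19.8-fold value for Ptprc used both channels after loess and Aquantile and is open to dye bias. On each array it took the higher of the lowest signal well above background and the dim probe's own signal, here the former. Other probes not well above background, Il6 among them, had signals over that lowest one, so the value is no strict bound. For Il6 the own signal was the higher on all 3 arrays, so its value is the fitted ratio and no separate bound. RefSeq accessions of GRCm38.p6 named 21445 of the 23705 probes that carry one.

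The text names all 9 genes, up to 4 highest and 4 lowest called genes per list, set paralogs, Pgr, defining markers and the 3 probes nearest to Ptx3. One gene of the complement list is not reported here. The genes and lists were chosen with earlier results of these data known. The negative control comparison, the gaps between probes and the promoter search were added after the values were seen. The alternatives were other background corrections, normalizations, spot summaries and filters, outlier spots kept, an intensity trend and each array left out.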

Additional observations from a re-analysis of the deposited data

How the results depend on the processing

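With normexp offset 0 the counts of higher and lower probes were 3115 and 3909, those of complement genes 1 and 6, of acute-phase genes 2 and 7 and of signal genes 5 and 12. By the log ratio of the scanner software they were 3616 and 3887, 4 and 4, 1 and 8, and 8 and 12. Under median centring they were 7029 and 709, 4 and 1, 2 and 0, and 15 and 2. The offset sets by construction how far dim ratios shrink; for the rest the cause was not tested. With 1 array left out, signal genes called higher ranged from 1 to 2 (2 without replicate 3). Higher probes then ranged from 924 to 944 and lower probes from 1587 to 1613, complement genes called lower from 2 to 3 and acute-phase genes called lower from 4 to 5. Scale normalization, the median spot intensity, outlier spots kept, an intensity trend and a filter on dim probes moved none of these counts by over 1.5 times. Of the 131 values of the 12 probes under these settings, 95 moved by less than the SD between arrays. Much of this was fixed in advance. The intensity trend, the filter on dim probes and outlier spots kept left these ratios unchanged, and leaving out 1 of 3 arrays cannot shift a mean by the SD. Each probe moved by more under 3 settings. These were normexp offset 0, the log ratio of the scanner software and median centring, or for Cfb the median spot intensity in place of the last. None of the called probes changed sign. Of the other named probes, only probes of small ratio changed sign. These were a Masp1 probe (-0.0839) and an Mt1 probe (0.22) under median centring, and without replicate 3 a Pgr probe (from -0.18 to 0.0190 without single replicates) and Saa2 (from -0.0942 to 0.0586). No paired analysis was possible because there is 1 group, and a slide block could not be fitted because each slide holds 1 array. The number of arrays and the closeness of dim signals to the negative controls limit the precision.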
